A study of Saccharomyces cerevisiae with 25 samples.

Results

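The genes described here make ergosterol, the main sterol of yeast membranes, or carry electrons to its enzymes, esterify it, bind it or switch its genes on. They were taken from the table by name, as every row called ERG and a number together with HMG1, HMG2, MVD1, IDI1, NCP1, ARE1, ARE2, UPC2, ECM22, HES1, MCR1 and CYB5. This gave 31 genes of 6650 named rows. Of the 31, 22 had a value in all 20 libraries that could be used for tests and 9 did not.

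The cells were Saccharomyces cerevisiae BY4741, a laboratory strain of mating type a, with the reporter pho84pr-YFP and the allele pho85 damp. PHO85 encodes a cyclin-dependent kinase that keeps the phosphate starvation genes off while phosphate is plentiful, and a DAmP allele lowers a gene's RNA by disturbing the end of its transcript. All 25 samples shared this background, so nothing here compares the allele with an intact gene. A single library came from high phosphate medium at 0 min, and 24 libraries were taken every 15 min from 15 to 360 min after transfer to medium without phosphate. Each time point was 1 library. Libraries were therefore grouped into an early window from 15 to 120 min, a middle window from 135 to 240 min and a late window from 255 to 360 min. Tests across them give p-values that measure only the spread of time points around the mean of their window, including any trend inside it. Those time points need not be separate cultures. The change of medium and the loss of phosphate cannot be told apart.

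Sterol synthesis starts from acetyl-CoA. The mevalonate pathway builds isoprenoid units and joins them into farnesyl diphosphate, squalene synthase joins farnesyl units into squalene, and squalene is oxidised and closed into the ring system of lanosterol. Lanosterol is then demethylated, reduced and desaturated into ergosterol by membrane enzymes, several of which need oxygen, heme or cytochrome b5. The zinc cluster factors Upc2 and Ecm22 bind a short sterol regulatory element in the promoters of many of these genes, and Upc2 is known as the sensor that switches them on when sterol is low.

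That element was looked for in the 500 bases before the coding start of each gene, as TCGTATA or TCGTTTA on either strand, so that TATACGA and TAAACGA also count. The words differ from each other and cannot start at the same base, though neighbouring copies may touch. Of the 31 sterol genes, 26 (83.9%) held at least 1 copy, against 891 of 6002 protein-coding genes (14.8%). TCGTATA alone was found before 10 sterol genes (32.3%) and before 7% of all genes. In the nearest 250 bases the element was found before 14 sterol genes (45.2%) and before 8.55% of all genes. No match was found before ERG11, HMG2, ERG12, ARE2 or IDI1. A match describes the letters only and is neither a shown binding site nor a cause.

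The stretches below were read from the RefSeq genome sequence of build R64, the build that the submitters' notes also name, and are written 5′ to 3′ on the strand of the gene, with the element in capitals. They belong to the genes whose RNA stood out most in the results that follow, and to ERG3, which held the most copies. All lie upstream of the coding sequence.

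ERG25, chrVII:610064-610137, plus strand, with 3 copies in a stretch that covers 500 to 427 bases before the coding start.
ERG25: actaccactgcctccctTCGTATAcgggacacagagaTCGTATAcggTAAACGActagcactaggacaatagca
ERG1, chrVII:848779-848825, minus strand, with 1 copy.
ERG1: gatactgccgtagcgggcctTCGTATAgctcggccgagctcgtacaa
ERG5, chrXIII:302831-302968, minus strand, with 2 copies in opposite orientations.
ERG5: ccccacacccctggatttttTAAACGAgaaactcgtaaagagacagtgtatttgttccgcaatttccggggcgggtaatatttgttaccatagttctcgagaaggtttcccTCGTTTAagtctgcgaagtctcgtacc
ERG9, chrVIII:484686-484732, plus strand, with 1 copy.
ERG9: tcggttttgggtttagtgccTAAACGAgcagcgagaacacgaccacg
ERG24, chrXIV:110660-110706, minus strand, with 1 copy.
ERG24: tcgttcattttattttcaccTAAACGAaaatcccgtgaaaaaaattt
ERG27, chrXII:341674-341720, plus strand, with 1 copy.
ERG27: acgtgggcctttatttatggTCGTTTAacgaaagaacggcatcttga
MCR1, chrXI:166237-166283, plus strand, with 1 copy.
MCR1: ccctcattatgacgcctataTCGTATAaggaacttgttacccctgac
HES1, chrXV:781639-781685, plus strand, with 1 copy.
HES1: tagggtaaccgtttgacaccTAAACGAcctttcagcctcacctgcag
ERG3, chrXII:253423-253601, plus strand, with 5 copies.
ERG3: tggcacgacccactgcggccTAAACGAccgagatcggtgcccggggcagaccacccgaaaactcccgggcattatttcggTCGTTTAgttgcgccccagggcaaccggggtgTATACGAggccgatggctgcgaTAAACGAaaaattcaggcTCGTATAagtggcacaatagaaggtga

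The values are reads per 1000000 listed reads (RPM) on a log2 scale, and a gene with fewer than 10 reads in a library has no value there. The 0 min library held 4954493 listed reads, and the 19 deeper libraries without phosphate held 169768 to 1981423. The libraries at 45, 75, 90, 210 and 330 min held under 100000 listed reads, list a gene only when its level is high, and were left out of the tests. The phosphate response was present, with PHO84, the high-affinity phosphate transporter gene, at 6.12 log2 RPM at 0 min and 10.26 on average in the late window. PHO85 itself was listed in 4 libraries with at most 28 reads. Mating type a genes were listed in 15 (ASG7) to 24 libraries (MFA1 and MFA2). Of the alpha genes, MF(ALPHA)2 was listed in none, MF(ALPHA)1 in 3, SAG1 in 15 and STE3 in 17, with at most 99 reads. HIS3, LEU2, MET17 and URA3, which BY4741 lacks, were listed in none. RNA was taken from whole cultures, so all levels are relative: a change in RNA per cell and a change in the mixture of cells cannot be told apart.

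The share of all reads that fell on the 31 sterol genes was steady for about the first 135 min and then climbed. It was 0.609% at 0 min, with an exact Clopper-Pearson 95% interval of 0.602% to 0.616% that covers counting error only. The 5 early libraries lay between 0.550% and 0.616%, with a mean of 0.588% ± 0.0246 (SD, n = 5). The share was 0.629% at 135 min, 0.725% at 165 min, 0.873% at 195 min and 1.02% at 240 min. The 7 late libraries lay between 0.962% and 1.06%, with a mean of 1.02% ± 0.0359 (SD, n = 7). The windows did not overlap, and the late mean was 1.74 times the early mean (two-sided exact permutation test, p = 0.00253, the smallest that 5 against 7 libraries allow).

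Ribosomal protein genes moved the other way over the same hours, from 29.1% to 32.9% of reads in the early libraries to 4.08% to 7.52% in the late ones. Counted over the reads outside those genes, the sterol share was 0.855% ± 0.0363 (SD, n = 5) early and 1.08% ± 0.0406 (SD, n = 7) late, 1.26 times as much (two-sided exact permutation test, p = 0.00253). The median of all 4733 tested genes was 0.41 higher on the log2 scale in the late window than in the early one. A gene with a late value 0.41 above its early value thus moved with the middle of the table.

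**Figure D1:**
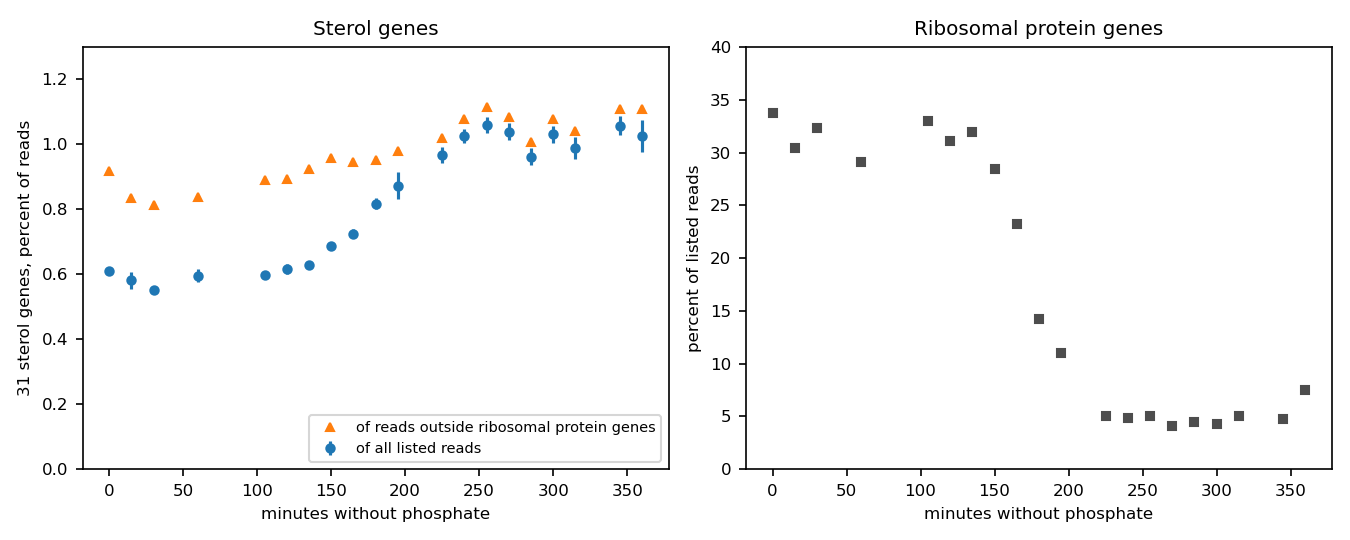
Left, summed reads of the 31 sterol genes as a percentage of all listed reads (circles, with 95% counting intervals) and of the reads outside ribosomal protein genes (triangles) in the 20 deeper libraries, by minutes without phosphate; right, the percentage of reads on ribosomal protein genes. The sterol share of all reads is at most 0.629% up to 135 min and lies between 0.962% and 1.06% in the late libraries, while the ribosomal share ends between 4.08% and 7.52%.

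By stage of the pathway, the genes from squalene to zymosterol gained most. Their summed share was 0.183% to 0.212% of reads in the early libraries and 0.392% to 0.506% in the late ones. The mevalonate genes took 0.199% to 0.223% early and 0.272% to 0.319% late, and the genes from zymosterol to ergosterol took 0.123% to 0.155% early and 0.165% to 0.230% late. None of these 3 stages had a late library inside its early range. These are shares of all listed reads, of which ribosomal protein genes took far less late, and they were not recounted outside those genes. A late range wholly above the early range was also common among single genes, at 21.9% of all tested genes.

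**Figure D2:**
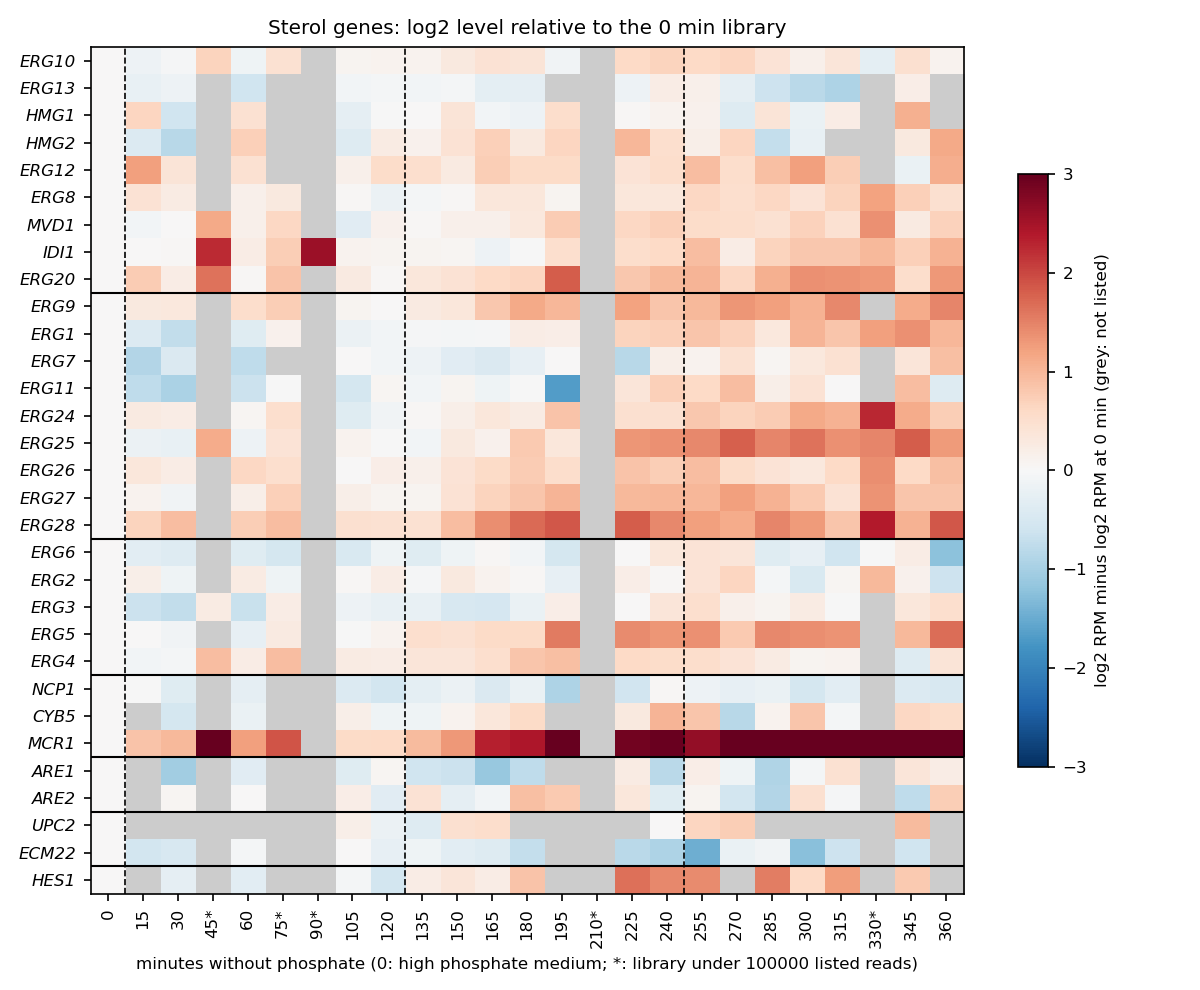
Log2 level of each sterol gene in each library minus its level in the 0 min library, with genes grouped by role between the black lines, windows separated by dashed lines, grey for values that were not listed and asterisks on libraries under 100000 listed reads. MCR1, ERG25, ERG28, ERG9 and ERG5 are red across the late window, whereas ERG6, ERG2, NCP1 and ERG13 stay near the 0 min level or below it in many late libraries.

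The late window was then compared with the early window gene by gene, which sets 2 groups of libraries without phosphate against each other. In all, 17 of the 30 tested sterol genes were higher late and 0 were lower (limma, adjusted p under 0.05 over all tested genes). Of all tested genes 41.9% were called, 34.9% higher and 6.97% lower. The median change of the 30 sterol genes was 0.51 log2 against 0.41 for all tested genes. With every library centred on the median of the genes listed in all deeper libraries, 8 of the 30 were higher, against 15.4% of all genes, and 1 was lower, against 14.2%. The 8 were all among the 17: ERG25, ERG1, ERG9, ERG24, ERG27, ERG5, MCR1 and HES1. The lower gene was ECM22. With only the reads that fell outside ribosomal protein genes as the base, 7 of the 30 were higher, against 13.1% of all genes, and 4 were lower, against 16.8%. The 7 were the same 8 without ERG27 (limma adjusted p = 0.084), and the 4 were ECM22, NCP1, ERG13 and ERG2. UPC2 had too few listed values for the test.

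ERG25 rose most among the genes of the demethylation steps. It encodes the sterol methyl oxidase (chrVII:610564-611493, plus strand, 1 coding exon), which removes methyl groups from the ring together with Erg26 and Erg27. Its level was 597.8 RPM at 0 min and 527.5, 515.8, 534.7, 641.2 and 593.2 RPM at 15, 30, 60, 105 and 120 min. The 7 late libraries ran from 1455 RPM through a median of 1644 RPM to 2094 RPM. All late libraries lay above all early ones, and the change was 1.63 log2 (SE 0.21), or 3.10-fold (limma adjusted p = 4.15e-06). Centred on the median gene it was 1.24 log2 (limma adjusted p = 4.80e-05). It ranked 216 of the 4733 tested genes from the top.

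Of the 9 genes from squalene to zymosterol, 8 rose and ERG26 did not pass. ERG1 encodes squalene epoxidase, the first step that uses oxygen. Its early values were 226.3, 180.7, 236.7, 266.0 and 287.6 RPM, and its late values ran from 376.5 through 536.2 to 775.4 RPM without overlap, a change of 1.22 log2 (SE 0.18, limma adjusted p = 1.72e-05). ERG9 encodes squalene synthase, which commits farnesyl diphosphate to sterols. It had 161.6, 163.7, 189.3, 139.8 and 134.4 RPM early and 261.9, 310.8 and 365.2 RPM as the lowest, median and highest late values, again without overlap (0.99 log2, SE 0.17, limma adjusted p = 7.13e-05). ERG24, a sterol reductase that acts after lanosterol demethylation, went from 220.4, 213.4, 191.1, 143.3 and 169.4 RPM to a late range of 289.5 to 401.1 RPM with a median of 319.2 RPM, also without overlap (0.88 log2, SE 0.16, limma adjusted p = 1.21e-04).

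ERG27 and ERG7 also rose. ERG27, the sterol keto reductase of the demethylation complex, stood between 148.0 and 180.2 RPM early and between 215.0 and 374.1 RPM late (0.79 log2, SE 0.17, limma adjusted p = 5.74e-04). ERG7, lanosterol synthase, stood between 55.8 and 104.0 RPM early and between 107.6 and 194.4 RPM late (0.81 log2, SE 0.20, limma adjusted p = 0.00233). Neither gene's windows overlapped. ERG7 had 103.3 RPM at 0 min, and its late mean was 0.38 log2 above that level. ERG28, the scaffold of the complex, rose by 0.61 log2 (SE 0.21, limma adjusted p = 0.0253) with overlapping windows, and the call was lost without the library at 105, 120 or 360 min (adjusted p = 0.0657, 0.0649 and 0.0588 by limma).

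ERG11, lanosterol demethylase and the target of azole drugs, was higher late by 0.95 log2 (SE 0.31, limma adjusted p = 0.0179), yet its windows overlapped. Its early values were 214.5, 188.5, 233.2, 249.8 and 376.6 RPM, and its late values ran from 276.8 through 488.9 to 689.7 RPM. At 0 min it had 362.7 RPM, and its late mean was 0.385 log2 above that level. ERG26, the decarboxylase of the same complex, was 0.34 log2 higher (SE 0.16) and missed the threshold (limma adjusted p = 0.0848). It was 0.05 log2 lower with median centring. ERG7, ERG11 and ERG28 also lost their calls with median centring (limma adjusted p = 0.135, 0.233 and 0.423).

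**Figure D3:**
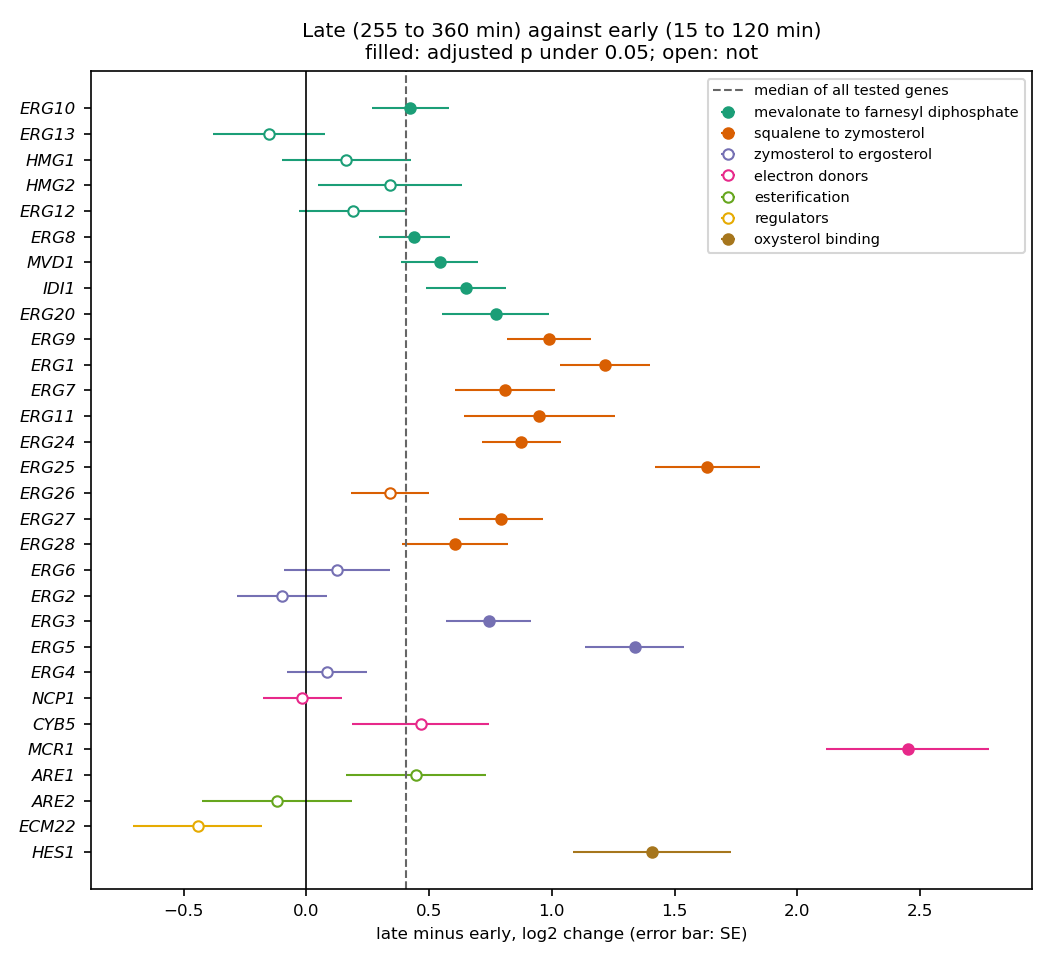
Late minus early log2 change of the 30 tested sterol genes (limma estimate, bars for the standard error), coloured by role, with filled points for limma adjusted p under 0.05 and a dashed line at the median change of all tested genes (0.41). MCR1, ERG25, HES1, ERG5 and ERG1 lie farthest to the right, and the mevalonate genes lie around the dashed line.

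**Figure D4:**
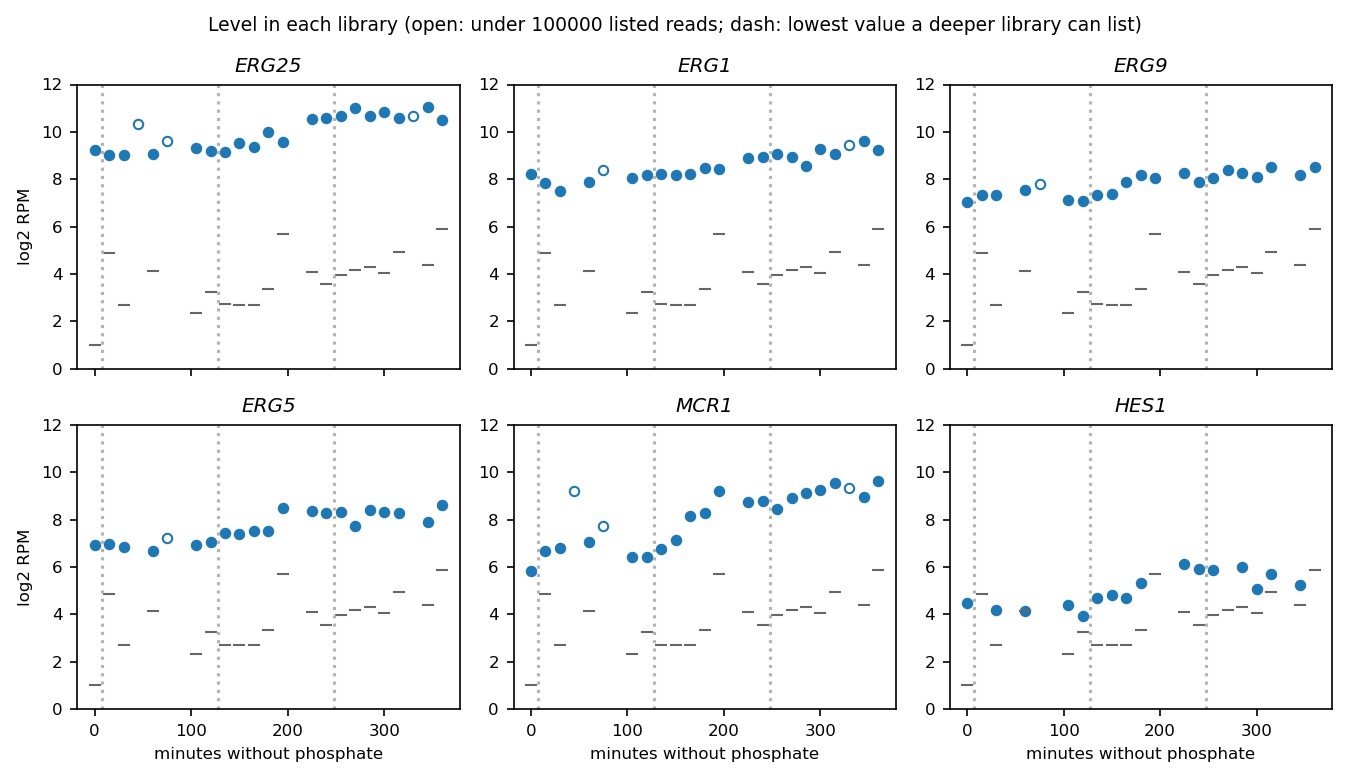
Level in log2 RPM of ERG25, ERG1, ERG9, ERG5, MCR1 and HES1 in each library by minutes without phosphate, with open circles for libraries under 100000 listed reads and short dashes for the lowest value a deeper library can list. The late points of the first 5 genes all lie above their early deeper points, and HES1 is the lowest of the 6, with no point in 4 of the deeper libraries.

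The mevalonate genes moved with the middle of the table. Of these 9, 5 were higher late (ERG10, ERG8, MVD1, IDI1 and ERG20), but their median change was 0.42 log2 against 0.41 for all genes, and none of the 9 was called with median centring. ERG20, which makes farnesyl diphosphate, changed most, from a range of 374.7 to 620.1 RPM early to 526.7 to 951.3 RPM late, with overlap (0.77 log2, SE 0.22, limma adjusted p = 0.00604). IDI1, the isomerase of isopentenyl diphosphate, lay between 376.2 and 440.0 RPM early and between 440.6 and 771.6 RPM late (0.65 log2, SE 0.16, limma adjusted p = 0.00252). IDI1 windows met without overlapping, but with all 25 libraries its change was 0.02 log2 (limma adjusted p = 0.964), the shallow libraries at 45 and 90 min listing it at 1779 and 2218 RPM on 33 and 11 reads.

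MVD1, ERG8 and ERG10 changed by about the median of all genes. MVD1, mevalonate diphosphate decarboxylase, changed by 0.54 log2 (SE 0.16, limma adjusted p = 0.00703), from 194.3 to 273.5 RPM early to 296.8 to 399.4 RPM late. ERG8, phosphomevalonate kinase, changed by 0.44 log2 (SE 0.14, limma adjusted p = 0.0162), and ERG10, acetoacetyl-CoA thiolase, by 0.42 log2 (SE 0.16, limma adjusted p = 0.0332). On the base of reads outside ribosomal protein genes both were lower late, by -0.03 and -0.04 log2. The ERG8 call was lost without the library at 120 min (limma adjusted p = 0.061), and the ERG10 call was lost without the library at 15, 30, 60, 255, 270 or 285 min (limma adjusted p from 0.0508 to 0.0672). With all 25 libraries ERG20, MVD1 and ERG10 were not called either (limma adjusted p = 0.0883, 0.125 and 0.501).

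The remaining 4 mevalonate genes, HMG1, HMG2, ERG12 and ERG13, did not pass. The rate-limiting HMG-CoA reductases HMG1 and HMG2 changed by 0.16 and 0.34 log2 (limma adjusted p = 0.633 and 0.358), and both were lower late with median centring (-0.21 and -0.05 log2). ERG12, mevalonate kinase, changed by 0.19 log2 (limma adjusted p = 0.495) and by -0.20 log2 with median centring. ERG13, HMG-CoA synthase, had 50.0, 52.4, 38.6, 54.5 and 55.8 RPM early, and 30.7 RPM to 66.9 RPM late in the 6 libraries that list it, so the windows overlapped. Its change was -0.15 log2 (SE 0.23, limma adjusted p = 0.61), and it was called lower with the reads outside ribosomal protein genes as the base (-0.62 log2, limma adjusted p = 0.0431).

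Among the 5 genes from zymosterol to ergosterol, ERG5 and ERG3 rose and the others did not pass. ERG5 encodes the cytochrome P450 that desaturates the sterol side chain. It had 123.4, 114.6, 103.4, 121.6 and 132.5 RPM early, and 212.2, 320.8 and 394.7 RPM as the lowest, median and highest late values. No late library reached down to the early range, and the change was 1.34 log2 (SE 0.20, 2.53-fold, limma adjusted p = 1.87e-05). ERG3, a sterol desaturase of the ring, went from 301.1 to 446.6 RPM early to 491.3 to 712.7 RPM late (0.74 log2, SE 0.17, limma adjusted p = 0.0012), without overlap, but was not called with median centring (limma adjusted p = 0.0926). At 0 min ERG3 had 498.5 RPM, above every early library, and its late mean was 0.26 log2 above that level. ERG3 holds the most copies of the element of all sterol genes, 5, while ERG25 holds 3 and ERG5 and ERG7 hold 2. ERG4, ERG6, ERG13, ERG26 and ECM22, not called higher late against early, also hold 2, and MCR1, ERG1, ERG9 and HES1 hold 1.

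ERG6, the sterol methyltransferase, ERG2, the sterol isomerase, and ERG4, the last reductase, changed by 0.13, -0.10 and 0.09 log2 (limma adjusted p = 0.656, 0.679 and 0.687). ERG2 values were 174.1 to 226.2 RPM early and 123.7 to 294.9 RPM late, an overlap of the whole early range (SE of the change 0.18). ERG2 was called lower on the base of reads outside ribosomal protein genes (-0.56 log2, limma adjusted p = 0.0255). With median centring the changes of ERG6 and ERG4 turned to -0.27 and -0.31 log2. ERG4 peaked in the middle window, at 660.9 RPM at 180 min and 689.3 RPM at 195 min, after 346.8 to 440.6 RPM early and before 284.2 to 531.6 RPM late. In a test of any change over time without phosphate, a natural spline with 4 degrees of freedom, ERG4 passed (limma adjusted p = 0.00224), as it did with median centring (adjusted p = 5.07e-04 by limma).

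The largest late against early change of the 30 tested sterol genes was in an electron donor. MCR1 encodes the mitochondrial NADH-cytochrome b5 reductase, which can feed electrons to the lanosterol demethylation step (chrXI:166544-167452, plus strand, 1 coding exon). It stood at 56.9 RPM at 0 min, at 102.9, 111.3, 133.2, 85.3 and 86.1 RPM in the early libraries, and at 351.8, 563.8 and 783.4 RPM as the lowest, median and highest late values. The windows were far apart, with a change of 2.45 log2 (SE 0.33, 5.46-fold, limma adjusted p = 1.72e-05) that ranked 60 of the 4733 tested genes from the top. It was 2.06 log2 with median centring.

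The other donors did not pass. CYB5, cytochrome b5, was 0.47 log2 higher (limma adjusted p = 0.181) and passed without the library at 270 min (0.65 log2, adjusted p = 0.0355 by limma), while on the base of reads outside ribosomal protein genes it was at -0.0023 log2. NCP1, the reductase that serves cytochromes P450, had 235.1, 184.6, 198.1, 179.2 and 162.7 RPM early and 164.1, 190.4 and 212.3 RPM as the lowest, median and highest late values. The late range lay inside the early range, with a change of -0.02 log2 (SE 0.16, limma adjusted p = 0.94). NCP1 was called lower on the base of reads outside ribosomal protein genes (-0.48 log2, limma adjusted p = 0.0346).

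HES1 encodes an oxysterol-binding protein that carries sterols between membranes. It was low throughout, with 18.3, 17.5, 21.2 and 15.1 RPM in the 4 early libraries that list it and 33.1, 52.2 and 63.8 RPM as the lowest, median and highest of 5 late libraries. The change was 1.41 log2 (SE 0.32, limma adjusted p = 0.00129). HES1 was not listed at 270 min, where any value above 17.98 RPM would be, so that library lies within or below the early range. With unlisted values set to the lowest value of their library the change was 1.11 log2 (limma adjusted p = 0.007).

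Counting the listed values, 13 of the 30 tested genes had every late library above every early one, against 21.9% of all tested genes, and 0 had every late library below, against 5.11%. These 13 were ERG25, ERG1, ERG7, ERG9, MCR1, ERG3, ERG27, ERG5, ERG24, MVD1, HES1, ERG10 and IDI1. HES1 is among them only over the 4 early and 5 late libraries that list it. Its unlisted value at 270 min lies within or below the early range. All 8 genes that were higher also with median centring held the sterol regulatory element in their 500 bases, and so did 18 of the other 23 sterol genes (78.3%). In the nearest 250 bases it was found before 2 of the 8 (25%) and before 12 of the other 23 (52.2%). Within 500 bases the element was thus common on both sides of that line, and ERG11 and IDI1, called higher in the uncentred comparison, held none.

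The middle window placed much of the change between 135 and 240 min. Against the early window, 8 of 30 sterol genes were higher and 0 lower in the middle (10.4% of all tested genes were called, 8.26% higher and 2.13% lower): MCR1, ERG5, HES1, ERG27, ERG28, ERG25, ERG1 and ERG9. MCR1 changed by 1.47 log2 (limma adjusted p = 0.0146) and ERG5 by 0.97 log2 (limma adjusted p = 0.00812), and the remaining adjusted p ranged from 0.027 for ERG27 to 0.0437 for ERG25. The shares of all genes above are from the uncentred fit on all 20 deeper libraries. The count of sterol genes depended on the scaling and on single libraries. It was 2 with median centring, was 4 without the library at 15 or 60 min and 3 without the one at 195 min, fell to 2 without any 1 of the libraries at 30, 105, 120, 180, 225 or 240 min, and rose to 11 without the one at 135 min.

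The single courses are values only, and their order was not tested. MCR1 went from 109.5 RPM at 135 min to 139.5, 287.3 and 305.9 RPM at 150, 165 and 180 min. ERG25 had 561.0, 736.9, 658.5, 1029 and 754.1 RPM from 135 to 195 min and then 1487 and 1552 RPM at 225 and 240 min. ERG28 went from 106.9 RPM at 135 min to 279.9 RPM at 195 min, and its late median was 181.3 RPM. ERG1 stood at 296.8, 289.3 and 295.7 RPM from 135 to 165 min and reached 477.1 RPM at 225 min.

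Between the middle and late windows 6 of 30 genes were higher and 0 lower (9% of all tested genes were called, 6.3% higher and 2.7% lower): ERG25, ERG1, ERG7, ERG24, IDI1 and MCR1. ERG25 changed by 0.95 log2 (limma adjusted p = 0.0072) and MCR1 by 0.98 log2 (limma adjusted p = 0.0487). Here too the shares of all genes are from the uncentred fit on all 20 deeper libraries. The count was 1 higher and 1 lower with median centring, and it was 1 without the library at 135, 150 or 165 min, 2 without the one at 315 min, 3 without the one at 180, 300 or 360 min, and 8 without the one at 225 min. ERG28 and HES1, called against the early window in the middle, changed by -0.11 and 0.31 log2 from middle to late (limma adjusted p = 0.761 and 0.525).

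The spline test, which does not depend on where the windows are drawn, called 20 of the 30 sterol genes as changing over time, against 52.8% of all tested genes. These were the 17 above with ERG4, ERG26 (limma adjusted p = 0.0413) and HMG2 (limma adjusted p = 0.0411). All 20 had a higher late than early mean, against 41.8% of all genes called in that direction. With median centring the test called 13, of which 10 were higher late and 3 lower (ECM22, ERG2 and ERG4). Both shares of all genes are without centring, so these 13 are not set against a share.

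Against the 0 min library MCR1 changed most in each window, but that library is a single one and is shared by the 3 comparisons. Early, 0 of 30 sterol genes were called, and 0 had an unadjusted p under 0.05 by limma, with 0.211% of all tested genes called. The changes ran from -0.56 log2 for ERG11 to 0.85 log2 for MCR1. In the middle window 2 of 30 were higher (3.27% of all tested genes were called, 3.15% higher), MCR1 by 2.32 log2 (limma adjusted p = 0.0423) and ERG28 by 1.37 log2 (limma adjusted p = 0.0498). Both calls were lost without any 1 of the libraries at 15, 30, 105, 165, 180, 225, 240, 270, 285, 300, 315 or 345 min.

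In the late window 7 of 30 were higher and 0 lower than at 0 min, against 23.9% of all tested genes called, 18.6% higher and 5.28% lower. MCR1 was 9.81-fold higher (3.29 log2, limma adjusted p = 0.00136), ERG25 2.91-fold (1.54 log2, limma adjusted p = 0.00681), ERG5 2.44-fold (1.29 log2, limma adjusted p = 0.014) and ERG28 2.39-fold (1.26 log2, limma adjusted p = 0.0207). ERG9, ERG24 and ERG27 were the others, with 1.23, 0.89 and 0.88 log2 (limma adjusted p = 0.00699, 0.0284 and 0.0396). ERG1, at 302.2 RPM at 0 min and lower in every early library, was 0.86 log2 higher late than at 0 min and was not called (limma adjusted p = 0.0601). With median centring 3 genes were called, 2 higher and 1 lower.

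Paired genes were compared as log2 ratios within each library, which do not depend on scaling. HMG1 over HMG2 was -0.11 at 0 min, 0.06 ± 0.53 early (SD, n = 5) and 0.07 ± 0.82 late (SD, n = 5), a difference of 0.01 (two-sided exact permutation test, p = 1, adjusted over 4 ratios 1). ARE1 over ARE2, the paired sterol acyltransferases that make steryl esters, was -0.02 ± 0.62 early (SD, n = 4) and 0.54 ± 0.59 late (SD, n = 7), with overlap (two-sided exact permutation test, p = 0.164, adjusted 0.4). ARE1 overlaps the annotated gene YCR050C, and without known strand counting their reads cannot be told apart. ARE1 and ARE2 levels changed by 0.45 and -0.12 log2 (SE 0.28 and 0.31, limma adjusted p = 0.208 and 0.774), and ARE1 was at -0.02 log2 on the base of reads outside ribosomal protein genes. Their late ranges, 29.9 to 76.8 RPM for ARE1 and 22.9 to 70.7 RPM for ARE2, both overlapped the early ones.

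The regulators had low levels, and UPC2 was the lowest of all sterol genes per length of coding sequence. UPC2, the sterol sensor, had 12.9 RPM at 0 min, 14.6 and 11.4 RPM at 105 and 120 min, 9.9, 18.1, 18.7 and 13.0 RPM in 4 middle libraries, and 20.1, 21.6 and 25.1 RPM at 255, 270 and 345 min. Most libraries list no UPC2 value. No late library can list a value under 15.5 RPM, which is above both listed early values, so the order of the listed early and late values is fixed by the limit for listing and says nothing about a change. ECM22 had 47.2 RPM at 0 min, 32.3, 34.0, 45.6, 47.4 and 39.7 RPM early and from 17.0 to 43.8 RPM in 6 late libraries. Its change was -0.44 log2 (SE 0.26, limma adjusted p = 0.177) with overlapping windows. It was called lower with median centring (-0.82 log2, limma adjusted p = 0.0275) and on the base of reads outside ribosomal protein genes (-0.91 log2, limma adjusted p = 0.0164).

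The ratio of UPC2 to ECM22 was -1.75 ± 0.08 early (SD, n = 2) and -0.34 ± 0.59 late (SD, n = 3) on the log2 scale. The same limit pushes the late ratio up, because only late libraries with enough UPC2 reads enter it, so the difference of 1.41 is given as a value and its test is not used. ERG3 over ERG11, a pair known from azole treatment, in which Erg3 acts on the sterols that accumulate when Erg11 is blocked, was 0.54 ± 0.25 early (SD, n = 5) and 0.33 ± 0.53 late (SD, n = 7), with overlap (two-sided exact permutation test, p = 0.439, adjusted 0.586).

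**Figure D5:**
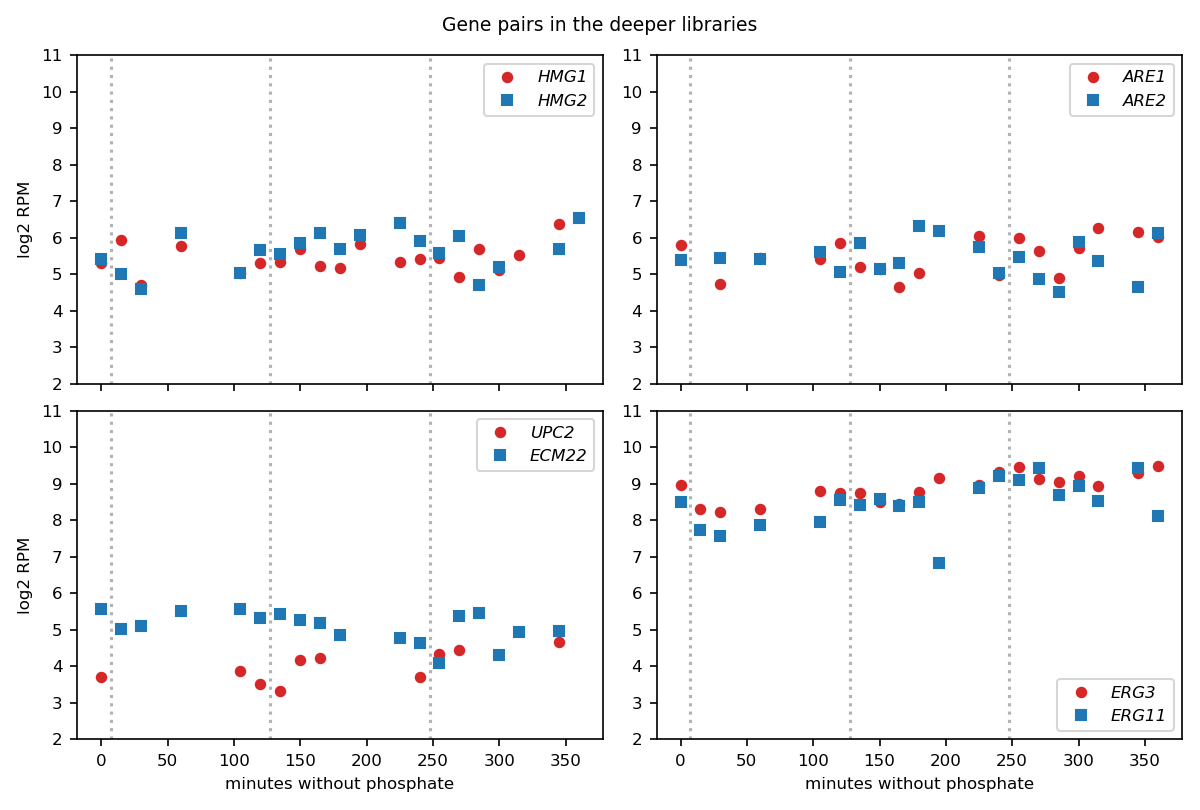
Level in log2 RPM of HMG1 and HMG2, ARE1 and ARE2, UPC2 and ECM22, and ERG3 and ERG11 in the deeper libraries that list them, by minutes without phosphate, with dotted lines between windows. The HMG and ARE pairs overlap throughout, the UPC2 points lie below those of ECM22 except at 255 min, and ERG11 has a single low point at 195 min.

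Per kilobase (kb) of coding length, levels of different genes can be set side by side. At 0 min ERG25 was highest with 642.8 RPM per kb, followed by ERG10 with 479.9, ERG3 with 454 and IDI1 with 433.5, and HMG1 and UPC2 were lowest with 12.6 and 4.71. The highest was 136.5 times the lowest. ERG25 stayed first in the median of every window and reached 1767 RPM per kb late. MCR1 moved from place 21 at 0 min to place 5 late, with 62.6 and 620.3 RPM per kb. In the late window IDI1, ERG20 and ERG10 came after ERG25 with medians of 754.4, 724.3 and 635.8 RPM per kb.

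Genes around the pathway were read from lists chosen by function. Of all tested genes 34.9% were higher late than early and 6.97% lower, with a median change of 0.41 log2. Of 7 tested genes that control the stability of HMG-CoA reductase and of cytochrome P450 proteins, 2 were higher late than early and 0 lower, with a list median of 0.40 log2. They were NSG2, which binds and stabilises HMG-CoA reductase (1.05 log2, limma adjusted p = 5.31e-04), and UBC7, a ubiquitin-conjugating enzyme of the endoplasmic reticulum (0.62 log2, limma adjusted p = 0.0166). Of 10 tested genes of heme synthesis and oxygen response, 1 was higher and 0 lower, with a list median of 0.32 log2. That gene was DAP1, whose heme-binding product supports Erg11 (0.93 log2, limma adjusted p = 2.40e-04).

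Genes of sterol handling were read against the 34.9% of all tested genes that were higher. Among 5 further oxysterol-binding genes, 2 were higher and 0 lower, with a list median of 0.65 log2, namely OSH7 (1.16 log2, limma adjusted p = 1.40e-04) and OSH2 (0.67 log2, limma adjusted p = 0.0121). Of 4 tested genes of steryl ester hydrolysis and sterol acetylation, 2 were higher and 0 lower, with a list median of 0.75 log2, namely the lipase genes YEH1 (0.87 log2, limma adjusted p = 0.00151) and TGL1 (0.75 log2, limma adjusted p = 0.013). Of 10 genes of sterol uptake and anaerobic growth only AUS1, a sterol importer, had enough values for the test, and it changed by -0.37 log2 (limma adjusted p = 0.35). With median centring NSG2, DAP1 and OSH7 kept adjusted p of 0.0131, 0.0095 and 0.0067 by limma, and UBC7, OSH2, YEH1 and TGL1 did not pass. HEM2 of the heme list, not called without centring, was then called lower (-0.55 log2, limma adjusted p = 0.0297).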

How the data were processed

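RNA from 25 samples was sequenced, 1 from high phosphate medium and 24 without phosphate. The deposited values are log2 RPM, which the authors made after leaving out genes under 10 reads in a library, as the values themselves show: on the linear scale each library sums to 1000000. The lowest value of a library was taken as 10 reads, which made 93.4% to 95.3% of the values of each deeper library whole reads within 0.01. The submitters' processing notes name Bowtie and build R64. The sources used here name no counter, no version and no use of strand. A scaling to 0 min that the labels mention was not found in the values, which are levels.

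All tests across genes used limma 3.58.1 in R 4.3.3 on the log2 values as deposited, fitted gene by gene over the libraries with a value, with 1 model for the 3 windows and 0 min. Variances were moderated with a trend and robust settings, and p-values were adjusted by Benjamini-Hochberg over the 4733 tested genes. A tested gene had a value at 0 min, at least 3 values in each window and a mean of at least 10 RPM. The fit used the 20 libraries with at least 100000 listed reads, and 0 min, a single library, was assumed to vary like the windows. Exact permutation tests over libraries, two-sided, served for shares and ratios (scipy 1.17.1). Positions and promoters came from the RefSeq annotation and genome of build R64, which held all 31 genes.

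Every sterol gene is named, with full statistics for those called late against early and for the largest changes in each role. The genes, lists, windows and tests were chosen with earlier results of these data known. Alternatives covered the libraries used, scaling, unlisted values, filters, weights, variance moderation and leaving out each library.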

Additional observations from a re-analysis of the deposited data

Results flagged for a closer look

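Of 104 groups of 4 to 10 values checked for a library far from the others, 3 gave one, and chance alone gives about 1 in 20. In the middle window ERG11 was at 6.83 log2 RPM at 195 min, and the next lowest of the 7 libraries was at 8.38. In the same library the log2 ratio of ERG3 to ERG11 was 2.33, and the next highest was 0.33. The log2 ratio of UPC2 to ECM22 was -2.12 at 135 min, and the nearest of the other middle libraries that list both genes was at -1.08. The library at 195 min held 192943 listed reads, fewer than any other deeper library but the one at 360 min.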

How the results depend on the processing

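No paired analysis was possible because each time point is 1 library and the labels give no replicate numbers. Counts of sterol genes called are given here by setting, without the share of all tested genes in each setting. They show only how far the count of sterol genes shifts. Late against early (17 genes) gave 9 with median centring (8 higher, 1 lower) and 11 scaled to reads outside ribosomal protein genes (7 higher, 4 lower), and 15 to 17 leaving out each library. Middle against early (8) gave 2 with all 25 libraries, median centring, reads outside ribosomal protein genes or quantile normalization, 15 with library weights, 4 with libraries of at least 200000 reads (a setting chosen after seeing the data) and 2 to 11 leaving out each library. Late against middle (6) gave 2 with median centring or reads outside ribosomal protein genes, and 1 to 8 leaving out each library. Middle against 0 min (2) gave 0 with all 25 libraries, median centring, quantile normalization or at least 200000 reads, 1 with reads outside ribosomal protein genes or no variance trend, and 0 to 3 leaving out each library. Late against 0 min (7) gave 3, 2 and 4 with median centring, reads outside ribosomal protein genes and quantile normalization, and 6 to 8 leaving out each library. The spline test (20) gave 12 with all 25 libraries, 13 with median centring, 12 with reads outside ribosomal protein genes, and 18 to 21 leaving out each library. Early against 0 min stayed at 0 throughout leaving out each library. The promoter count (26) was 10 with TCGTATA alone. Leaving out each library, the difference in the sterol share ran from 0.426 to 0.445 percentage points, and the late against early log2 ratio differences ran from -0.23 to 0.30 for HMG1/HMG2, 0.33 to 0.83 for ARE1/ARE2, 1.12 to 1.71 for UPC2/ECM22 and -0.38 to -0.10 for ERG3/ERG11. The cause of these shifts was not tested. Late against early log2 changes turned sign for genes that were not called or were near the median of all genes. With median centring they were -0.054 for ERG26, -0.31 for ERG4, -0.054 for HMG2, -0.27 for ERG6, -0.21 for HMG1 and -0.20 for ERG12. Scaled to reads outside ribosomal protein genes they were -0.022 for ARE1, -0.13 for ERG26, -0.38 for ERG4, -0.12 for HMG2, -0.34 for ERG6, -0.31 for HMG1, -0.28 for ERG12, -0.025 for ERG8, -0.0023 for CYB5 and -0.041 for ERG10. With quantile normalization they were -0.12 for ARE1, -0.16 for HMG2, -0.025 for ERG6, -0.34 for HMG1, -0.29 for ERG12 and -0.054 for CYB5. With all 25 libraries they were -0.15 for ERG4 and 0.062 for ERG2, with library weights 0.059 for NCP1, and with libraries of at least 200000 reads 0.0071 for NCP1 and 0.0065 for ERG2. Leaving out each library, the changes ran from -0.073 to 0.060 for NCP1, -0.011 to 0.31 for HMG1, -0.20 to 0.0065 for ERG2 and -0.26 to 0.0071 for ARE2. Depth limits UPC2, HES1 and the other genes near 10 reads most.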

Other observations

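Lipid genes next to the sterol pathway were read from lists chosen by function, late against early in the deeper libraries. Of all tested genes 34.9% were higher and 6.97% lower, and with median centring 15.4% were higher and 14.2% lower. Of 7 tested fatty acid genes, 1 was higher and 2 were lower, with a list median of 0.07 log2 against 0.41 for all tested genes. OLE1, the fatty acid desaturase, was 3.72-fold higher (1.89 log2, limma adjusted p = 8.08e-06), and the elongase genes SUR4 and FEN1 changed by -1.02 and -0.84 log2 (limma adjusted p = 3.96e-04 and 8.07e-04). These 3 calls stood with median centring (1.5, -1.41 and -1.23 log2, limma adjusted p = 1.30e-04, 1.30e-04 and 9.16e-05). Against the single 0 min library OLE1 changed by -0.88 log2 early and 1.01 log2 late, without centring. Of 11 tested sphingolipid genes, 4 were higher and 1 was lower, with a list median of 0.30 log2. CSG2 and SCS7 were higher by 1.16 and 0.98 log2 (limma adjusted p = 2.72e-04 and 0.00503), and IPT1, which makes the most complex yeast sphingolipid, changed by -0.69 log2 (limma adjusted p = 0.0372). With median centring 1 sphingolipid gene was higher, CSG2 (0.77 log2, limma adjusted p = 0.00841), and 2 were lower, IPT1 and AUR1 (-1.09 and -0.74 log2, limma adjusted p = 0.00326 and 0.00137), and SCS7, LAC1 and SUR1 were not called (limma adjusted p = 0.0879, 0.235 and 0.317). Of 7 tested genes that draw on farnesyl or other isoprenoid units outside sterols, 2 were higher and 0 lower, with a list median of 0.28 log2, namely MOD5 (0.73 log2, limma adjusted p = 0.00902) and COQ1 (0.68 log2, limma adjusted p = 0.006). Neither MOD5 nor COQ1 was called with median centring (limma adjusted p = 0.238 and 0.23). RER2 of the same list, not called without centring, was then called lower (-0.84 log2, limma adjusted p = 0.0424).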
